A study of Homo sapiens with 17 samples.

Results

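H2A.Z.1 was followed from growing to differentiating Caco-2/15 cells by comparing the Flag ChIP-seq peak lists of postconfluent cells with those of subconfluent cells. The members were 4 of the 17 samples of the series, and 4 of its 8 Flag lists: 2 lists from postconfluent and 2 from subconfluent cells, 1 from each of 2 experiments (Exp1 and Exp2). Their groups were read from the labels. Caco-2/15 is a line of human colon cancer cells, which acquire traits of absorptive enterocytes once they are confluent. All 4 samples came from cells that are heterozygous for H2AFZ-Flag, so that the Flag tag sits on the product of 1 allele of H2AFZ (now H2AZ1) and the other product is not seen. The tag was placed in the 3′ region of the gene by CRISPR-Cas9. Whether the tagged cells are 1 clone is not stated in the labels, nor is it stated that Exp1 and Exp2 were separate cultures, so the p-values below measure the spread between these samples. The postconfluent cells had been kept for 7 days after confluence and the subconfluent cells were still growing, with no other treatment named. The other Flag lists, from cells with tagged H2A.Z.2, were used for comparison, and 9 samples are not analysed here.

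H2A.Z is a variant of histone H2A that replaces it in some nucleosomes. The SRCAP and p400-TIP60 complexes exchange it into chromatin, and ANP32E and INO80 are linked to its removal. It is known for flanking the nucleosome-poor start of active and poised genes, and it also marks enhancers. Vertebrates have 2 genes for it, and their products H2A.Z.1 and H2A.Z.2 differ by a few amino acids, so antibodies do not separate them and a tag is used. In the intestinal epithelium, H2A.Z has been studied in the balance between proliferating crypt cells and differentiated enterocytes.

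All lists were first brought to the same length, the 46636 intervals of the shortest one (subconfluent Exp1), by keeping those with the highest deposited −log10 p, and overlapping intervals of the 4 lists were merged into 71125 regions. An interval's percentile is its rank by the authors' fold enrichment within its own reduced list, where 100 is the strongest. A score ranks the fold enrichment of a region's strongest interval only among the regions with an interval in all lists compared. It is given on the scale of a normal distribution, in SD units, so percentiles do not convert into scores directly. Before reduction the lists held 56427 and 79425 intervals after confluence (Exp1 and Exp2) and 46636 and 66522 before, and their weakest intervals after reduction had a −log10 p of 8.80, 11.5, 4.92 and 9.03 in that order. Read depth is unknown, and in lists from whole cultures a region bound in fewer cells and a region with less H2A.Z.1 per cell cannot be told apart. The tagged gene carried an interval in all 4 lists: at H2AZ1 (chromosome 4, 99950003 to 99951273 on GRCh38) the percentiles were 95.2 and 84.2 after and 87.3 and 90.1 before confluence. At H2AZ2 (chromosome 7, 44847506 to 44849266) they were 98.4 and 86.9 after and 90.8 and 82.6 before, and in both genes the states overlapped.

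The starts of 6 genes show the patterns that the results turn on, and the 250 bases before each start of transcription are printed 5′ to 3′ on the gene's strand, with each CG dinucleotide (CpG) in capitals. The sequences are from RefSeq on GRCh38.p14. RTP4 (chr3:187368135-187368384, plus strand) and USP54 (chr10:73601622-73601871, minus strand) had H2A.Z.1 intervals in the 2 postconfluent lists and in no subconfluent list. SPATA13 (chr13:24270500-24270749, plus strand) and GPC4 (chrX:133415490-133415739, minus strand) had them in the 2 subconfluent lists and in no postconfluent list. CDKN1A (chr6:36678464-36678713, plus strand) and PTGS2 (chr1:186680424-186680673, minus strand) had them in all 4 lists, with the strongest summit on different sides of the start in the 2 states.
RTP4: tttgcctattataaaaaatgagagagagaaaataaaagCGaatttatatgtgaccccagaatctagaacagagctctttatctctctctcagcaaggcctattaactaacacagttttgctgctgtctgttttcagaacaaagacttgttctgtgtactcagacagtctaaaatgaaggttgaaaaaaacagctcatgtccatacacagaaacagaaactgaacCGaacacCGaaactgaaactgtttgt
USP54: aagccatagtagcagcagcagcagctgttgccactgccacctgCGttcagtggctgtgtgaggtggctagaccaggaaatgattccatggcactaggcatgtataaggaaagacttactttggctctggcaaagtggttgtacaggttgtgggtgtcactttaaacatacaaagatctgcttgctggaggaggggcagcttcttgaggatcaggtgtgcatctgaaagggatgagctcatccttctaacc
SPATA13: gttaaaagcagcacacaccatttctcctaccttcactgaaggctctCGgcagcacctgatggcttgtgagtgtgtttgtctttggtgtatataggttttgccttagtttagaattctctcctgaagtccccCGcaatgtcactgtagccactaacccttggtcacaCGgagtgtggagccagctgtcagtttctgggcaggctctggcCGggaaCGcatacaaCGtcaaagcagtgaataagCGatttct
GPC4: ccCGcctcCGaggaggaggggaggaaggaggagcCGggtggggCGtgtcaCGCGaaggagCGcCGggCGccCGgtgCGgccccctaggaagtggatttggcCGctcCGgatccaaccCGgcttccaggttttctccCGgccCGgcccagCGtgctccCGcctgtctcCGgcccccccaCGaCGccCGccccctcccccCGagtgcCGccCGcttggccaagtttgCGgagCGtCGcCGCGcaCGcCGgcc
CDKN1A: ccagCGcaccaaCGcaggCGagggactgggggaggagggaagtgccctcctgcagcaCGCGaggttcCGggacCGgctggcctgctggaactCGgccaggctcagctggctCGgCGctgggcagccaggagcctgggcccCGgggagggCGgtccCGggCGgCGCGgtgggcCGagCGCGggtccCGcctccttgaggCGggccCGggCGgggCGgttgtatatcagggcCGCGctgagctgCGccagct
PTGS2: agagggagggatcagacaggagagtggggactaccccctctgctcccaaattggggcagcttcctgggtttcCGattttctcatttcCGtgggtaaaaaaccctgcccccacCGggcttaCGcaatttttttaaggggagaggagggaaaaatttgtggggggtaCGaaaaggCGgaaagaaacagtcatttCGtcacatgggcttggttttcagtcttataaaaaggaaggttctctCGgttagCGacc
The numbers of CpG in these stretches were 3, 1, 7, 32, 27 and 9, in the order printed.

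Most regions at gene starts had an H2A.Z.1 interval in both states, and the regions that were listed in one state lay mainly away from starts. Of the 71125 regions, 25293 had an interval in all 4 lists. These made up 74.9% of the regions within 1 kb of a gene start, 21.4% of those elsewhere in gene bodies, 26.1% of those within 10 kb of a gene and 21.8% of those farther away. A total of 3554 regions (5% of all) had an interval in the 2 postconfluent lists and in no subconfluent list, called postconfluent-only below. The reverse, called subconfluent-only, held for 1583 regions (2.23%). Near gene starts the shares were 1.69% postconfluent-only and 1.44% subconfluent-only, and they moved apart, to 1.33% and 0.482%, when the region also had to be absent from both whole lists of the other state. Away from starts postconfluent-only regions made up 6.03% to 6.22% of each kind of place and subconfluent-only regions 1.99% to 2.67%. These regions were of low rank: their median percentiles were 27.4 and 29.9 in the postconfluent lists and 24.2 and 28.4 in the subconfluent lists, against 70.4 to 71.8 for regions in all 4 lists. The remaining 40695 regions (57.2%) had intervals in other combinations of the lists. Of them 9.66% lay near gene starts, beside 8.50% of postconfluent-only, 16.2% of subconfluent-only and 25.1% of all regions. Lying away from starts was thus not particular to the one-state regions.

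**Figure D1:**
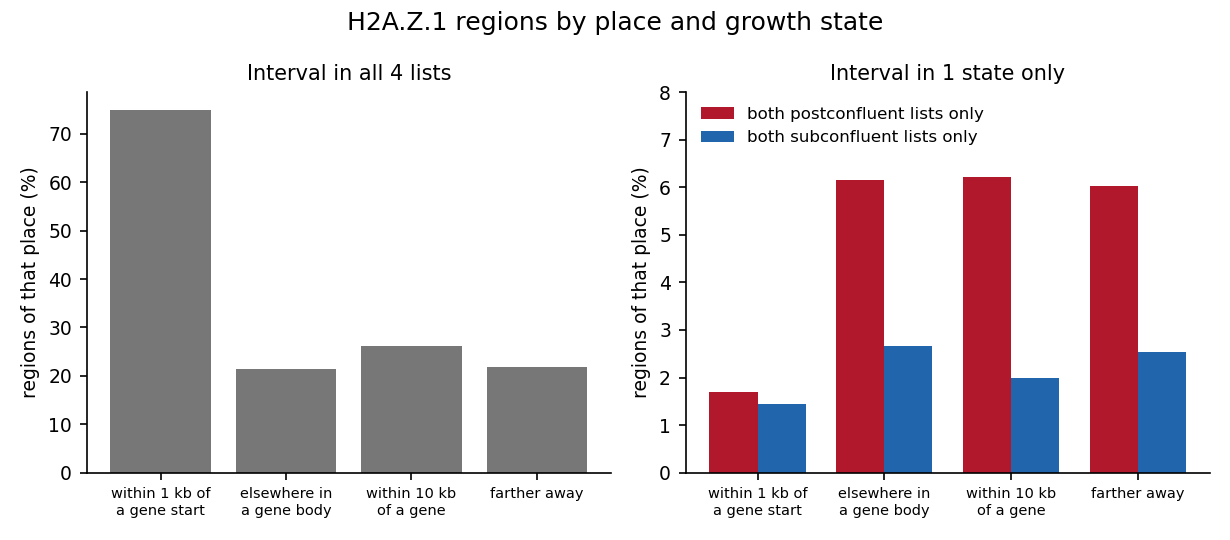
Bars give the share of the merged H2A.Z.1 regions of each kind of place (y axis, %) that had an interval in all 4 lists (left) or in both lists of 1 state and neither of the other (right). Genes that the table of starts lacks were represented by both of their ends. Regions at gene starts were in all 4 lists in 74.9% of cases, and postconfluent-only regions were 1.69% of those at starts and 6.03% to 6.22% elsewhere.

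The direction of this surplus depended on how the lists were reduced. When each list was reduced to the same covered length in place of the same number of intervals, 1352 regions were postconfluent-only and 3531 subconfluent-only. The postconfluent intervals were wider, as given below, so that an equal number of them covers more of the genome. With the further demand that the region be absent from both whole lists of the other state, 2971 postconfluent-only (4.18%) and 660 subconfluent-only regions (0.928%) were left. Of all one-state regions 69.2% were postconfluent-only, and this became 41.0% without subconfluent Exp1 and 37.7% without subconfluent Exp2, when 1 list decides for its state. Within Exp1 alone, 11514 regions were listed after and not before confluence and 10608 the reverse, and within Exp2 alone the numbers were 15365 and 12427. No p-value was computed, since an exact permutation test of 2 lists against 2 cannot pass 0.05. The postconfluent lists were the longer ones in both experiments before reduction, and the part of list length in these counts was not tested.

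Gene starts listed after confluence in both lists and not before were poor in CpG, and those listed before and not after were not. Most vertebrate promoters lie in CpG islands, stretches rich in CpG, where H2A.Z is commonly found. Of 22199 starts of coding genes with a RefSeq sequence, 13183 had an interval within 1 kb in all 4 lists, and their 250 upstream bases held a median of 22 CpG (quartiles 15 and 29). The 7268 starts with an interval in none of the lists had a median of 4 (quartiles 2 and 11). The 114 postconfluent-only starts had a median of 4 CpG (quartiles 2 and 8), like the starts with no interval. The 129 subconfluent-only starts had a median of 15 (quartiles 7 and 25). Between them stood the 1505 starts with intervals in other combinations of the lists, with a median of 8 (quartiles 4 and 22). At least 10 CpG were present at 19.3% of the postconfluent-only starts and 67.4% of the subconfluent-only starts. This compares with 46.8% of starts in other combinations and 65.5% of all starts.

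**Figure D2:**
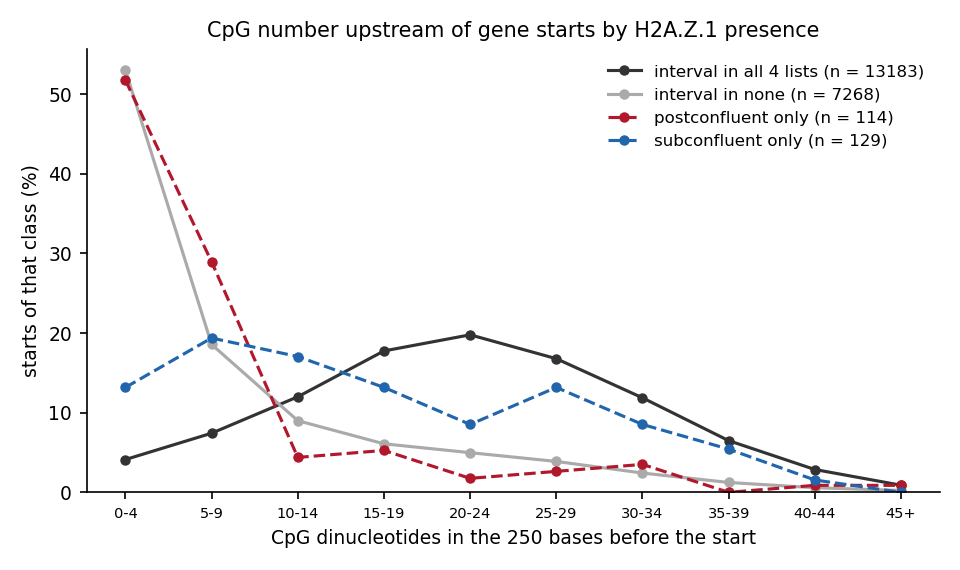
Lines give the share of starts (y axis, %) by the number of CpG dinucleotides in the 250 bases before the start (x axis, bins of 5), for starts with an H2A.Z.1 interval within 1 kb in all 4 lists, in none, or in both lists of 1 state only. Fewer than 5 CpG were present at 51.8% of postconfluent-only starts, 53.0% of starts with no interval, 13.2% of subconfluent-only starts and 4.12% of starts listed in all 4.

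The same order was seen in each experiment. In Exp1, 353 starts were listed after and not before confluence, with a median of 5 CpG, and 460 before and not after, with a median of 12. In Exp2 the 530 starts listed after and not before had a median of 7 and the 597 in the reverse class a median of 12. Between the 2 replicates of one state, the starts listed in Exp1 and not Exp2 had a median of 7 and those in the reverse class a median of 9, in postconfluent as in subconfluent cells. The medians were 5 (56 starts) and 16 (255 starts) with lists of equal covered length, and 10 (139 starts) and 20 (148 starts) with lists of 23318 intervals. They were 4 (166 starts) and 15 (50 starts) in whole lists, and 4 (90 starts) and 16 (39 starts) with absence from the whole lists of the other state. Which class of starts was the larger thus turned with the reduction of the lists, while the postconfluent-only median was the lower in each of these settings. These are descriptions with no test, since starts of one gene or of neighbouring genes share intervals and sequence.

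Of 6 motifs searched in the same 250 bases, the GC-rich SP1 box differed most between the classes. The SP1 box GGGCGG, on either strand, was present at 70.0% of starts listed in all 4, 24.6% of postconfluent-only starts, 50.4% of subconfluent-only starts and 53.7% of all starts. The TATA box TATAAA was present at 4.35%, 13.2% and 9.30% of these classes and at 9.0% of all starts. RTP4 and PTGS2 carry it in the sequences printed above. The CDX site TTTATNG, for the intestinal homeobox factors, stood at 10.5% of postconfluent-only and 10.1% of subconfluent-only starts, and at 7.46% of all starts. The AP-1 site TGANTCA stood at 3.51% and 3.10%, with 5.36% of all starts. The CCAAT box CCAAT stood at 34.2% and 35.7%, with 32.7% of all starts, and the E-box CACGTG at 5.26% and 2.33%, with 7.37% of all starts. The CDX site reads CNATAAA on the other strand and there contains the TATA box where N is T, and no other of these motifs contains another. Starts with an interval in none of the lists carried the SP1 box at 26.4%, the TATA box at 17.1% and the CDX site at 11.6%. They carried the AP-1 site at 8.56%, the CCAAT box at 32.9% and the E-box at 4.90%. For the CDX site and the TATA box, the shares of both one-state classes thus lay below that of starts with no interval. A match is a description and not a bound site.

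The strongest postconfluent-only intervals at gene starts were at SASH1, SULT1C4 and SLK. At SASH1, a scaffold protein gene, the region (chromosome 6, 148343099 to 148343481) stood at percentiles 73.9 and 70.2 after confluence and had no interval before, also in the whole lists. SULT1C4, a sulfotransferase gene (chromosome 2, 108377097 to 108377552), stood at 62.7 and 63.8. SLK, a gene for a Ste20-like kinase (chromosome 10, 103967206 to 103967537), stood at 60.9 and 81.4. These 3 regions and the next 5 were chosen by the rank of their weaker list, and all were absent from both whole subconfluent lists. The absence holds for the region, and another interval near the same start may be listed before confluence. At starts 302 regions were postconfluent-only, beside 95 genes with intervals near a start in the postconfluent lists only. EOLA2 (chromosome X, 149938566 to 149938837) stood at 60.5 and 74.8, and USP54, of the family of ubiquitin-specific peptidases (chromosome 10, 73601635 to 73602023), at 59.7 and 73.4. TEAD1, the DNA-binding partner of YAP in Hippo signalling (chromosome 11, 12675214 to 12675586), stood at 61.0 and 57.3. RTP4, an interferon-induced chaperone of receptor transport (chromosome 3, 187368310 to 187368700), stood at 57.2 and 60.1, and SOS1, an activator of Ras (chromosome 2, 39122005 to 39122870), at 56.2 and 59.8. The RTP4 interval covered the start itself and the USP54 interval lay 14 bp away from it, and both overlapped the sequences printed above. Away from starts, the strongest lay in the bodies of CCDC150 (chromosome 2, 196718980 to 196719426, percentiles 83.3 and 73.4), BCAS3 (chromosome 17, 61356782 to 61357192, 73.6 and 72.6), LOC112268076 (chromosome 11, 67946194 to 67947400, 73.9 and 70.2) and MSMB (chromosome 10, 46035933 to 46036388, 70.0 and 73.5).

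The strongest subconfluent-only intervals at starts included those of SPATA13, VEGFA and GPC4. SPATA13, which encodes an activator of the small GTPases Rac and Cdc42 (chromosome 13, 24270529 to 24270961), stood at percentiles 69.3 and 86.6 before confluence and had no interval after. VEGFA, the main angiogenic growth factor (chromosome 6, 43769675 to 43770065), stood at 66.2 and 69.9. PNRC1, a nuclear receptor coactivator gene (chromosome 6, 89081744 to 89082185), stood at 66.6 and 70.8. DSE, the dermatan sulfate epimerase (chromosome 6, 116371339 to 116371986), stood at 64.3 and 77.4, and the glypican GPC4 (chromosome X, 133415517 to 133416174) at 62.2 and 74.0. CARHSP1, an RNA-binding protein gene (chromosome 16, 8868027 to 8868450), stood at 61.7 and 64.8, MTMR11, of the myotubularin family (chromosome 1, 149936489 to 149936964), at 53.3 and 71.7, and ZYG11B, a subunit of a ubiquitin ligase (chromosome 1, 52725617 to 52726139), at 63.9 and 52.3. All 8 regions were absent from both whole postconfluent lists. This again holds for the region: at starts 257 regions were subconfluent-only, beside 130 genes with intervals near a start in the subconfluent lists only. Away from starts, the strongest were in KDM6B, a histone H3 lysine 27 demethylase gene that overlaps LOC124904106 (chromosome 17, 7841865 to 7842746), at 66.1 and 68.4. The others lay 1503 bp from YBX2 (chromosome 17, 7296142 to 7296479, also 66.1 and 68.4), 1306 bp from FCGR3A (chromosome 1, 161539975 to 161540453, 71.9 and 65.4) and 20662 bp from LOC124901235 (chromosome 6, 170437976 to 170438669, 62.2 and 72.7).

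Tagged H2A.Z.2 was listed in these regions more often in the state in which H2A.Z.1 was. Of the 3554 postconfluent-only H2A.Z.1 regions, 25.8% and 17.8% had an interval in the postconfluent H2A.Z.2 lists (Exp1 and Exp2) and 13.5% and 4.42% in the subconfluent ones. Of the 1583 subconfluent-only regions, 2.59% and 6.63% had one in the postconfluent and 19.3% and 12.4% in the subconfluent H2A.Z.2 lists. H2A.Z.2 was itself listed after and not before confluence in 179 of the postconfluent-only regions and before and not after in 19, and the numbers for the subconfluent-only regions were 2 and 57. Among the 25293 regions in all 4 H2A.Z.1 lists they were 408 and 390. The H2A.Z.2 lists were reduced to 30603 intervals. Exp2 of both cell models carries the same sequencing run number in the interval names, and the Exp1 lists of the 2 models carry different ones.

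Over all coding genes, 12356 of 20037 (61.7%) had an H2A.Z.1 interval within 1 kb of a start in all 4 lists. Postconfluent-only genes numbered 95 (0.474%) and subconfluent-only genes 130 (0.649%). This order depended on the reduction of the lists: as given above for starts with a sequence, postconfluent-only starts were the fewer here, with equal covered length and with lists of 23318 intervals, and the more numerous in whole lists and with absence from the whole lists of the other state. Among the 560 genes of 20 lists of intestinal, cell cycle, chromatin and other cell type functions, SERPINC1, which encodes antithrombin, was postconfluent-only, at percentiles 47.9 and 48.7. Subconfluent-only were CDX2, the master regulator of intestinal identity, at 1.30 and 37.9, and AGR2, a secretory cell protein gene, at 40.0 and 9.02. APOH, MEOX2, TNNT2 and ACTA1, markers of liver, mesenchyme and muscle, were subconfluent-only too, with 46.4 and 20.4, 54.3 and 24.0, 37.5 and 21.4, and 34.8 and 29.6. The CDX2 interval is thus at the lower edge of the Exp1 list. VEGFA, described above, also counted as a subconfluent-only gene. So did SESN3, but at the edge of the 1 kb limit: the interval downstream of its start was in all 4 lists and reached within 1 kb in the subconfluent lists, and before shortening the Exp2 lists of both states held a weaker interval at the start.

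In lists of equal number, H2A.Z.1 intervals were wider after confluence, which did not hold for the whole lists of Exp1. The median width was 595 and 639 bp in the postconfluent lists (617 ± 31.1 bp, SD, n = 2) and 520.5 and 483 bp in the subconfluent lists (501.75 ± 26.5 bp, SD, n = 2), and the groups did not overlap. Intervals of 1 kb or more made up 25.3% and 28.2% of the postconfluent lists against 22.0% and 17.5% of the subconfluent lists. Those of 2 kb or more made up 3.43% and 3.93% against 2.37% and 1.44%. The postconfluent lists covered 36.5 ± 1.16 Mb and the subconfluent lists 31.0 ± 2.34 Mb (SD, n = 2 each). With 2 lists against 2, no exact permutation test of these per-list values can pass 0.05.

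**Figure D3:**
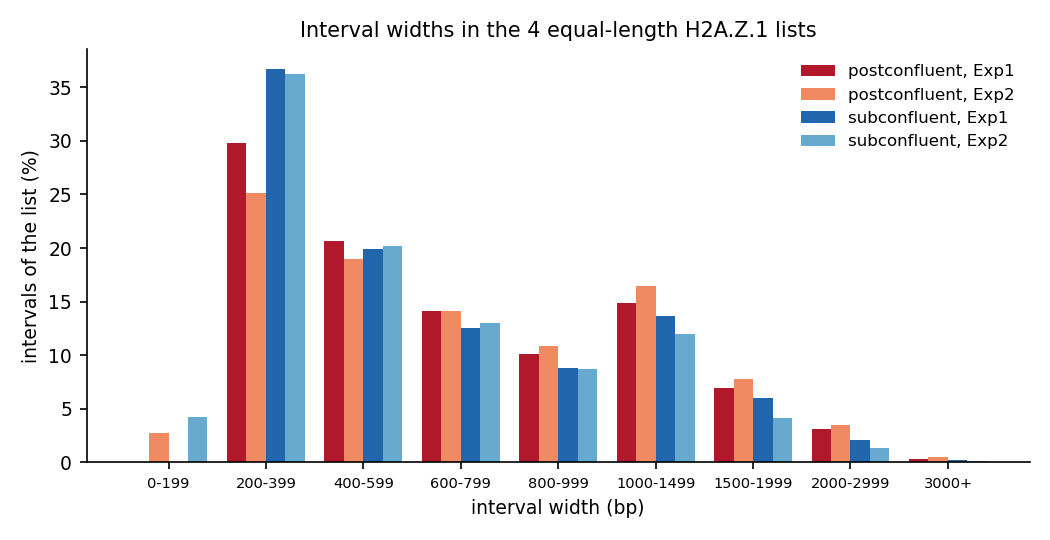
Bars give the share of intervals (y axis, %) by width (x axis, bp) in each of the 4 H2A.Z.1 lists of 46636 intervals. The postconfluent lists have fewer intervals of 200 to 399 bp and more in every class from 600 bp up than the subconfluent lists.

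The size and, in Exp1, the direction of this difference depended on how the lists were reduced. In the whole lists the median widths were 502 and 390 bp after and 520.5 and 364 bp before confluence, and intervals of 1 kb or more made up 20.9% and 16.7% against 22.0% and 12.3%. The whole postconfluent list was thus the narrower in Exp1 and the wider in Exp2, and the groups overlapped. At the 25293 regions shared by all 4 lists, where the same places are compared, the medians were 904 and 949 bp after and 835 and 724 bp before confluence. The strongest interval was wider after confluence in 61.4% of these regions in Exp1 and 74.3% in Exp2, by a median ratio of 1.05 and 1.16, and it was wider in both experiments in 47.7% and narrower in both in 11.8%. Shared regions at gene starts had medians of 1065 and 1104 bp after and 1016 and 858 bp before, and those farther than 10 kb from a gene 743 and 781 bp against 655 and 571 bp. Fewer of the shared regions were broken into more than 1 interval after confluence, 9.85% and 7.41% against 12.6% and 17.3%. The narrowest intervals were 230 and 174 bp long after and 234 and 190 bp before confluence, which differs between experiments more than between states. With each list centred on its own median width, limma called 0 of 25293 regions (0%) at an adjusted p of 0.05, with 1848 at an unadjusted p under 0.05 and a smallest adjusted p of 0.359.

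The regions with the smallest width p-values included BMP4 and CDKN1A, although none passed. At BMP4, a ligand of the BMP pathway that favours differentiation in the gut, the strongest interval measured 3536 and 3581 bp after confluence and 373 and 264 bp before (chromosome 14, 53953673 to 53957253, which also touches LOC124903317). The BMP4 start used here lies inside the annotated gene, whose 5′ end at 53956891 is farther upstream and also within the region. A single postconfluent interval ran from 2190 bp before to 1345 bp after this start in Exp1. In Exp2 it ran from 2203 bp before to 1377 bp after this start. In the subconfluent Exp1 list the same stretch held 4 separate intervals with 1715 bp in all, and in Exp2 it held 1 of 264 bp. CDKN1A, which encodes the cell cycle inhibitor p21 (chromosome 6, 36678099 to 36681090), went the other way: its strongest interval measured 347 and 494 bp after and 2065 and 2127 bp before confluence. All intervals of the CDKN1A region together covered 2361 and 2369 bp after and 2762 and 2422 bp before, so that the total length differed less than that of the strongest interval.

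Of the other regions named by width, the wider ones after confluence lay 12056 bp from TREH, the trehalase gene of the enterocyte brush border (chromosome 11, 118691706 to 118695142, 2770 and 3437 bp against 273 and 245 bp), at LOC124900476 (chromosome 22, 23532616 to 23536097, 3435 and 3044 bp against 447 and 387 bp) and 13938 bp from PSMA6 (chromosome 14, 35331431 to 35334717, 1884 and 1736 bp against 312 and 295 bp). The narrower ones lay 34840 bp from TOMM20 (chromosome 1, 235073221 to 235074501, 309 and 268 bp against 1204 and 1257 bp), in ST3GAL2, a sialyltransferase gene (chromosome 16, 70427942 to 70429148, 300 and 267 bp against 1207 and 867 bp), and 10981 bp from SPO11 (chromosome 20, 57317140 to 57318822, 427 and 355 bp against 1683 and 1199 bp). In these 8 regions the widths of the strongest interval did not overlap between states, and the limma adjusted p was 0.359 in each. All intervals together covered 2770 and 3437 bp against 1170 and 1110 bp at TREH. They covered 3435 and 3044 against 447 and 910 bp at LOC124900476, and 2477 and 3095 against 849 and 2399 bp at PSMA6. In the other direction they covered 1032 and 268 against 1204 and 1257 bp at TOMM20. At ST3GAL2 this was 723 and 637 against 1207 and 867 bp, and at SPO11 427 and 581 against 1683 and 1199 bp.

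Summits fell on both sides of gene starts and avoided the start itself. At the 12297 starts with a summit within 1 kb in all 4 lists, the summit of the strongest interval was most frequent in 50 bp bins around 275 to 325 bp upstream and 125 to 175 bp downstream, the places of the nucleosomes that flank the start. From 3.84% to 4.46% of summits lay within 50 bp of the start. The summit lay downstream of the start at 46.8% and 52.0% of starts after confluence (Exp1 and Exp2) and at 44.8% and 49.0% before. Within each experiment the postconfluent share was higher, and between experiments the shares differed more than between states. At 64.8% of starts the summit was on the same side in all 4 lists. It moved from upstream in both subconfluent lists to downstream in both postconfluent lists at 293 starts (2.38%), and the other way at 166 (1.35%).

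**Figure D4:**
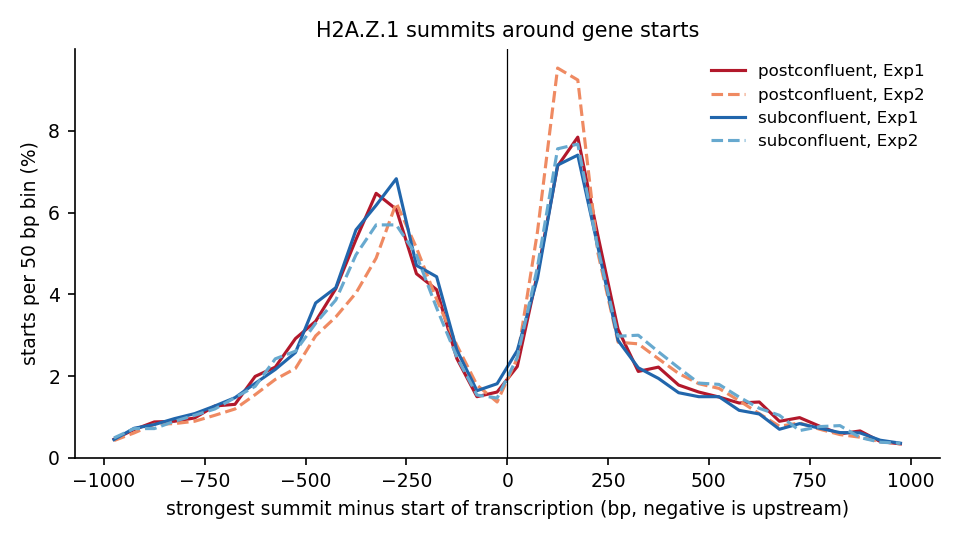
Lines give the share of the 12297 starts (y axis, % per 50 bp bin) by the distance of the strongest H2A.Z.1 summit from the start of transcription (x axis, bp, negative is upstream) in each of the 4 lists. All lists show 1 peak on each side of the start and a trough between them, and the downstream peak is highest in the postconfluent Exp2 list.

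PTGS2, which encodes the prostaglandin synthase COX-2, showed such an arrangement, without passing the test. Its summit lay 53 and 182 bp downstream of the start after confluence and 399 and 229 bp upstream before (a difference of 431.5 bp toward the inside of the gene, SE 90.4, limma adjusted p = 0.486). PTGS2 also had 1 of the largest differences of rank (chromosome 1, 186680020 to 186681119). At CDKN1A the arrangement was the reverse, with summits 292 bp upstream in both postconfluent lists and 496 and 491 bp downstream in the subconfluent lists (a difference of -785.5 bp, SE 34.9, limma adjusted p = 0.0556). Within the CDKN1A region, separate intervals upstream and downstream were listed in 3 of the 4 lists, so that the strongest of neighbouring intervals differed. The postconfluent lists also held a downstream interval, of 2014 and 1542 bp with summits 711 and 882 bp downstream, at percentiles 75.9 and 57.5 against 80.8 and 86.6 for the upstream one. The subconfluent Exp2 list also held an upstream summit, at 282 bp and percentile 70.8 against 93.0 for the downstream one, and in Exp1 a single interval ran from 482 bp upstream to 1582 bp downstream.

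Over all shared regions, the position of the strongest summit, averaged over the 2 lists of a state, shifted by a median of 51 bp between states. The median gap between single lists was 63 bp for the 2 postconfluent lists and 62 bp for the 2 subconfluent lists. A mean of 2 lists varies less than a single list, so these values cannot be ranked against each other. limma called 13 of 25293 regions (0.0514%) at an adjusted p of 0.05, each 0.0491, with 1246 at an unadjusted p under 0.05. Of these 13, 10 lay at gene starts or ends, and shifts ranged from 1300 to 2682.5 bp. In 12 of them at least 1 list held more than 1 interval, so that the strongest of several neighbouring summits was compared. Of all 25293 regions tested, 52.9% lay at gene starts or ends, and 18464 held exactly 1 interval in each list. With experiment number as a replicate block no region was called (smallest adjusted p 0.467), nor was any when 1 of the 4 lists was left out or when only regions with exactly 1 interval in each list were tested.

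CDKN1B and E2F3, 2 genes of cell cycle control, were among the called shifts. At CDKN1B, which encodes the inhibitor p27 and shares its region with GPR19 (chromosome 12, 12715402 to 12717892), the strongest summit lay 1289 and 1293 bp upstream of the start after confluence and 157 and 167 bp downstream before. The upstream interval measured 1723 and 2338 bp after confluence, and before confluence an interval of 332 bp with a summit 1263 bp upstream was listed in Exp1 and none there in Exp2. The percentile of the strongest interval was 42.0 and 34.6 after and 60.8 and 50.2 before. The downstream place was also covered after confluence. Postconfluent Exp1 held a further interval there, with its summit 125 bp downstream, at percentile 39.2 against 42.0 for the upstream one. In postconfluent Exp2 the single interval ran from 1966 bp upstream to 371 bp downstream. At E2F3, a transcription factor of S-phase entry, in a region shared with LOC124901482 (chromosome 6, 20400745 to 20404641), the summit lay 2071 and 2024 bp downstream after confluence and 628 and 642 bp upstream before. Both summits of E2F3 were listed in each state, and percentiles were 98.8 and 96.0 after and 87.8 and 82.5 before. At DUSP4, a phosphatase of the ERK kinases (chromosome 8, 29347970 to 29350844), the summit moved by 1702 bp toward the higher coordinate, and the percentile was 92.8 and 92.5 after against 75.4 and 66.7 before.

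The other called shifts at starts with a known strand were at MAB21L4 (chromosome 2, 240895613 to 240899234, 962 bp upstream in both postconfluent lists and 2635 and 2684 bp upstream before), LOC124900217 (chromosome 6, 138691789 to 138693965) and GSK3A, a kinase gene of glycogen metabolism and Wnt signalling (chromosome 19, 42242687 to 42245516). The GSK3A summit lay 2375 and 2455 bp upstream after and 318 and 223 bp upstream before confluence. ZNF503 (chromosome 10, 75400112 to 75405510) had summits 1703 and 1649 bp upstream after and 250 and 251 bp upstream before, and ICAM3 with RAVER1 (chromosome 19, 10332299 to 10336093) had them 2427 and 2407 bp downstream of a start after and 1129 and 1101 bp before. In GSK3A and ZNF503 as in CDKN1B the strongest summit was thus farther upstream after confluence, and in MAB21L4 it was nearer. Of the rest, LRRN4 (chromosome 20, 6051596 to 6054686) and ETV4, an ETS factor (chromosome 17, 43545271 to 43546914), lay at gene ends without a strand in the table used. ENOX1 (chromosome 13, 43785293 to 43787813) was shifted inside the gene, and 2 regions lay 12623 bp from ETF1 (chromosome 5, 138491368 to 138493472) and 94749 bp from LOC124907776 (chromosome 2, 64749972 to 64752214).

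**Figure D5:**
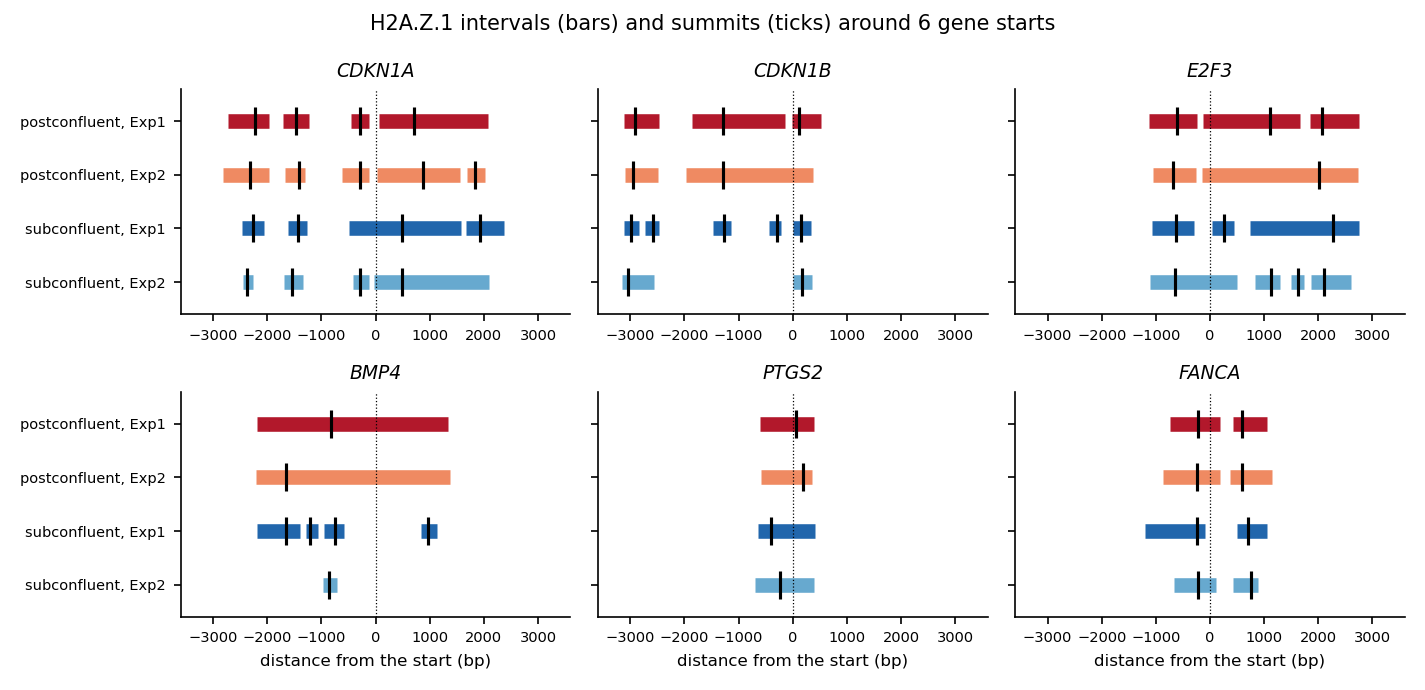
Bars are H2A.Z.1 intervals and black ticks their summits, by distance from the start of transcription (x axis, bp, negative is upstream, dotted line at the start), in the 4 lists at 6 gene starts. BMP4 has 1 interval of 3536 or 3581 bp after confluence and shorter pieces before, and the second interval of FANCA is present in all 4 lists. The BMP4 start shown lies inside the annotated gene.

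No region differed in rank by fold enrichment past the threshold. limma called 0 of 25293 regions (0%) at an adjusted p of 0.05, with 1753 at an unadjusted p under 0.05 and a smallest adjusted p of 0.110. At an unadjusted p under 0.05 with a change of at least 1 in score, 590 regions were higher after confluence (2.33%) and 573 lower (2.27%). With experiment number as a replicate block 1 region was called. With 1 list left out the calls numbered 2 to 89, the most without postconfluent Exp1.

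That region lies in FANCA, which encodes a subunit of the Fanconi anaemia DNA repair complex (chromosome 16, 89815504 to 89816267, with summits 591 to 754 bp downstream of the start). Its percentiles were 75.5 and 69.4 after confluence and 0.389 and 0.785 before, and its deposited fold enrichments 8.11 and 9.01 after and 2.72 and 3.54 before. The difference in score was 2.96 (SE 0.41), with a limma adjusted p of 0.110 and of 0.00594 with the replicate block. The neighbouring FANCA interval, which crossed the start except in subconfluent Exp1, where it ended 84 bp upstream, stood at 75.8 and 91.7 after and 72.5 and 71.9 before. The states were thus far apart at the inner interval in both experiments, and less so at the outer one.

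The other regions with the smallest p in the higher direction were at ADSS2, which encodes adenylosuccinate synthase of purine synthesis (chromosome 1, 244450964 to 244451965), with percentiles of 96.0 and 98.2 after and 56.4 and 54.6 before. PODXL, which encodes the apical membrane sialomucin podocalyxin (chromosome 7, 131554815 to 131556542), stood at 82.8 and 86.0 after and 32.7 and 16.6 before. EMILIN2, a matrix glycoprotein gene (chromosome 18, 2893659 to 2894617, in the gene body), stood at 44.7 and 64.4 against 4.45 and 0.174. Outside genes, a region 17554 bp from LGALS3BP (chromosome 17, 78951600 to 78953701) stood at 73.4 and 66.3 against 11.1 and 2.59, and one 7574 bp from ZNF77 (chromosome 19, 2952545 to 2954143) at 58.1 and 77.0 against 11 and 0.276. In all 5 the states did not overlap, and the limma adjusted p was 0.565 each.

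In the lower direction, SESN3, which encodes a stress-inducible inhibitor of mTORC1 (chromosome 11, 95230054 to 95231562, 913 bp or more downstream of the start), stood at 46.4 and 5.04 after and 89.7 and 91.1 before confluence. PTGS2 stood at 58.5 and 45.7 after and 89.1 and 98.9 before, and the calcium-regulated transcription factor gene NFATC2 (chromosome 20, 51428182 to 51429201, in the gene body) at 5.41 and 2.21 against 61.0 and 63.7. The score differences were -2.43 (SE 0.46) for SESN3, -2.12 (SE 0.46) for PTGS2 and -1.92 (SE 0.40) for NFATC2, with a limma adjusted p of 0.565 each. The rest were outside genes: a region 64807 bp from TMEM45B (chromosome 11, 129750216 to 129751041, percentiles 63.3 and 51.2 against 91.9 and 96.6), one 4762 bp from DEFB124 (chromosome 20, 31460193 to 31460709, 7.69 and 0.458 against 59.3 and 51.4) and one 15196 bp from FOXO3B (chromosome 17, 18697510 to 18698561, 68.8 and 74.4 against 98.9 and 96.3).

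The change with state was compared between the 2 tagged cell models at the 16878 regions with an interval in all 8 lists, each reduced to 30603 intervals. limma called no difference of the change (0 of 16878, 0%), with 520 at an unadjusted p under 0.05 and a smallest adjusted p of 0.485. At SESN3 the score of H2A.Z.1 differed by -3.03 (SE 0.51) between states and that of H2A.Z.2 by 0.27 (SE 0.51). This contrast had an unadjusted limma p of 0.000176 and a limma adjusted p of 0.993. SESN3 was named for its H2A.Z.1 difference, which enters the contrast again, so the unadjusted p cannot be read as that of a region chosen beforehand. At PTGS2 the differences were -2.64 and -1.01 (SE 0.53 each), and at ADSS2 2.75 and 1.63 (SE 0.49 each), with the same sign in both models. The sign was also shared at the regions nearest to TMEM45B (-2.25 and -0.98) and FOXO3B (-2.10 and -0.27), with an SE of 0.47 each.

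Markers of enterocytes and of other cell types were looked at by lists of genes, with the score of the strongest region at each start. The lists describe where H2A.Z.1 sits and not which genes are transcribed. An interval in all 4 lists was found at 22 of 28 brush border genes, 17 of 22 lipid absorption genes, 12 of 28 genes of digestion and transport and 16 of 28 intestinal transcription factors. The same held for 10 of 24 fibroblast, 11 of 24 liver, 8 of 24 blood cell, 7 of 28 secretory and tuft cell and 3 of 24 neuronal and muscle markers, with no interval in any list at 11, 8, 12, 13 and 12 of these. All 32 DNA replication, 34 mitosis, 32 ribosomal protein and 26 H2A.Z machinery genes carried it in all 4 lists. By score, limma called no member of any list, as it called no region, and all counts below are of signs. DUSP4 of the AP-1 and immediate early list was among the called summit shifts.

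Enterocyte genes showed no common direction. Scores were above 0, that is higher after confluence, at 12 of 22 brush border genes (median 0.01), 8 of 17 lipid absorption genes (median -0.10), 6 of 14 genes of digestion and transport (median -0.12) and 9 of 16 intestinal transcription factors (median 0.02), beside 47.4% of the 12380 genes with a score (median -0.03). Within these lists, PDZK1, a scaffold of the brush border, stood at percentiles 74.6 and 51.2 after and 11 and 15.7 before confluence (difference 1.47, SE 0.43). VIL1, which encodes villin of the microvillus core, stood at 9.53 and 1.25 after and 58.3 and 35.4 before (difference -1.46, SE 0.42). The apolipoprotein genes APOA1 and APOC3, which lie side by side, stood at 7.57 and 5.13 after and 42.9 and 57.9 before, and at 15.3 and 0.129 after and 46.2 and 68.1 before. CYBRD1, a ferric reductase of iron uptake, stood at 58.9 and 55.9 against 78.5 and 91.3. Of the junction and polarity genes, 13 of 26 were above 0 (median -0.03), and the tight junction gene CLDN7 stood at 48.5 and 7.78 against 79.9 and 79.1. In these 6 genes the states did not overlap. PDZK1 was higher after confluence and the other 5 lower, and each had an unadjusted limma p under 0.05 and did not pass adjustment.

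Growth arrest and HOX genes, lists chosen with earlier results of these data known, had more scores below 0 than above. Of the growth arrest genes, 7 of 25 were above 0 (median -0.29), beside 47.4% of all genes with a score. Within Exp1 alone 9 of 25 were above 0 (median -0.08) and within Exp2 alone 10 of 25 (median -0.24). For all genes these shares were 48.2% and 47.5%. The antiproliferative genes BTG2 and TOB1 stood at 61.0 and 40.0 after and 85.0 and 89.0 before, and at 45.1 and 39.1 after and 87.7 and 86.2 before. MXD3, an antagonist of MYC, stood at 21.3 and 29.3 against 68.0 and 83.6. CDKN1C, which encodes the inhibitor p57, went the other way, with 68.0 and 80.0 after and 17.5 and 36.9 before. Of the HOX genes, 7 of 29 were above 0 (median -0.30), with 10 of 29 in Exp1 (median -0.24) and 8 of 29 in Exp2 (median -0.54). No single HOX gene passed the rule for naming. With −log10 p ranked in place of fold, 8 of 25 growth arrest and 10 of 29 HOX genes were above 0 (medians -0.19 and -0.22). HOX genes lie in clusters, and neighbours share regions.

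The mitosis list had 13 of 34 genes above 0 (median -0.11) and the DNA replication list 18 of 31 (median 0.09, with 0.12 in Exp1 and -0.05 in Exp2). NUF2 and SPC25, kinetochore subunits, stood at 89.5 and 81.3 after and 97.4 and 98.3 before, and at 44.2 and 26.6 after and 81.9 and 69.7 before. PTTG1 (securin) stood at 63.9 and 25.1 against 80.0 and 75.2, and BIRC5 (survivin) at 42.8 and 13.4 against 53.8 and 73.6. CDC6, a licensing factor of replication origins, stood at 20.4 and 1.20 against 44.8 and 72.9. MCM3 and TYMS had differences of 1.17 each in the other direction. Of the hypoxia and glycolysis genes, 15 of 27 were above 0 (median 0.06), and VEGFA was subconfluent-only. VHL, BNIP3 and ENO2 of this list had score differences of 1.19, 1.03 and 1.16, each at an unadjusted limma p under 0.05, and did not pass adjustment.

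Of 5 lists of markers of other cell types, 3 had scores mostly below 0 in each experiment. Scores were below 0 at all 10 fibroblast markers with a score (median -0.57), at 10 of 11 liver plasma protein genes (median -0.36) and at 5 of 8 blood cell markers (median -0.46). For the secretory and tuft cell markers 6 of 8 were below 0 (median -0.14), but within each experiment the median was above 0, at 0.09 in Exp1 and 0.11 in Exp2. Of the neuronal and muscle markers 2 were above and 2 below 0 (median -0.02). TAGLN of smooth muscle and fibroblasts stood at 60.8 and 30.7 after and 80.6 and 84.1 before, F2, the prothrombin gene, at 45.9 and 30.5 against 76.7 and 86.7, and CSF1R of macrophages at 11.9 and 17.0 against 55.3 and 65.0. These lists, like the growth arrest and HOX lists, were chosen with earlier results of these data known, and the part of other cell types in the results above was not tested.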

How the data were processed

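The 4 lists come from Flag ChIP-seq of Caco-2/15 cells with tagged H2A.Z.1, read as single reads of 85 bp. The submitters' processing notes name the build hg38 and the tools BWA and deepTools. The peak caller, its control and any scaling by spike-in chromatin were not given in the sources used here. Each sample has a list of its own, so replicates are not pooled in these lists. The deposited score column is a whole number that was not used beyond checking it. The deposited fold enrichment is a ratio (fold), and the deposited p-values and q-values are on a −log10 scale. Summits are deposited as an offset in bp from where the interval begins. Only intervals past the authors' threshold are listed, so a region that is not listed may hold weaker signal, and no depth, counting error or floor can be given.

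Chromosomes 1 to 22, X and Y were analysed. Each list was reduced to 46636 intervals by −log10 p, and intervals that share at least 1 bp were merged. Gene starts were those of the RefSeq promoter table (GRCh38.p14, 15843 coding genes, 22199 starts), and both annotated ends were used for the other 4194 genes. Regions in all 4 lists were fitted with limma 3.58.1 (R 4.3.3), 2-sided, on normal scores of the fold rank, centred log2 width and summit position, with a Benjamini-Hochberg adjustment at 0.05 over all regions, and summit calls also needed a shift of 100 bp. The scripts were tested on simulated data. The experiment numbers also mark a shared sequencing run in the interval names. Over the 25293 regions, same-numbered lists deviated together with a correlation of 0.166 for scores and 0.0697 for widths, from only 2 pairs.

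Named regions were, in each direction, the 8 strongest one-state regions at starts and the 4 elsewhere, the 6 with the smallest score p and the 4 with the smallest width p. Also named were the 4 summit shifts of smallest p, the other called shifts (chosen after their values were seen), H2AZ1, H2AZ2, and list genes that were one-state or had an unadjusted p under 0.05 with a change of at least 1. The members and the gene lists were chosen with earlier results of these data known.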

Additional observations from a re-analysis of the deposited data

How the results depend on the processing

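Counts of one-state regions moved with the reduction of the lists, and the cause was not tested except where the construction shows it. Whole lists gave 7353 postconfluent-only regions and a postconfluent share of 86.8% of the one-state regions, against 69.2%. The length of the shortest of all 8 lists gave 1770 and 981 (64.3%), a length of 23318 gave 1105 and 725 (60.4%), equal covered length gave 1352 and 3531 (27.7%, the other direction), a −log10 q of at least 10 gave 411 subconfluent-only (90.7%) and merging within 500 bp gave 67.2%. Leaving out 1 list in turn gave 4924 to 10529 postconfluent-only and 2768 to 10234 subconfluent-only regions and a share of 37.7% to 77.7%. It reversed without subconfluent replicate 1 (41.0%) and without subconfluent replicate 2 (37.7%), where by construction a single list decides presence for that state. Score calls numbered 1 with the replicate block and 2 to 89 with 1 list left out, against 0. Summit calls numbered 0 in whole lists, 91 at the length of the shortest of 8, 107 at a length of 23318, 84 at a −log10 q of at least 10, 0 with the replicate block, 0 with 1 interval in each list and 0 to 0 with 1 list left out, against 13. Width and the contrast with H2A.Z.2 gave 0 calls under all alternatives run, the replicate block included. With 1 list left out, the lone list is assumed to vary like the others. The CpG alternatives were added after seeing the data.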

Other observations

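The postconfluent-only and subconfluent-only regions were spread over the genome, and a few windows of 200 kb held several. On chromosome 16, the window from 11200001 to 11400000 with CLEC16A, SOCS1, which encodes an inhibitor of cytokine signalling, the protamine genes PRM1 and PRM2, RMI2 and LOC400499 held 9 postconfluent-only regions among 37. The window of chromosome 1 from 234600001 to 234800000 with IRF2BP2 held 8 among 62, and that of chromosome 2 from 120400001 to 120600000 with GLI2, a transcription factor gene of Hedgehog signalling, and INHBB held 8 among 49. Subconfluent-only regions reached 5 in a window: among 26 on chromosome 3 from 186600001 to 186800000, with the plasma protein genes AHSG, FETUB, HRG and KNG1 and with EIF4A2, among 39 on chromosome 10 from 70400001 to 70600000, with NODAL, PALD1, PRF1 and EIF4EBP2, among 21 on chromosome 11 from 75000001 to 75200000, with NEU3, OR2AT4 and SLCO2B1, and among 23 on chromosome 20 from 32800001 to 33000000, with MAPRE1, EFCAB8 and SUN5. By chromosome, postconfluent-only regions made up 2.78% (chromosome X) to 6.23% (chromosome 14) of all regions, and subconfluent-only regions 1.35% (chromosome 19) to 3.13% (chromosome 20). These windows were picked for their counts, and no test was made.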
